A study of Mus musculus with 24 samples.

Results

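Fibro/adipogenic progenitors (FAPs) are the mesenchymal stromal cells that lie between the fibres of skeletal muscle. The comparison described here is between FAPs of old and of young mice 3 days after a muscle injury, that is, between 6 old activated and 6 young activated arrays. They were chosen by their sample titles and make up 12 of the 24 arrays of the study, whose other 12 arrays hold quiescent FAPs from uninjured muscle. All mice were wild-type males of the C57BL/6J strain, aged 2 to 4 months (young) or 20 to 24 months (old). The cells came from tibialis anterior, gastrocnemius and quadriceps muscles that were pooled, and the injury was an injection of 50 µl of 50% glycerol, which is known to lead to fat deposition in regenerating muscle. RNA was hybridised to 1-colour Illumina bead arrays, and all values below are normalized log2 intensities or differences between them. The labels call the arrays of a group biological replicates, but do not say how many animals each array holds. A p-value thus measures the spread between samples, which was pooled over all 24 arrays, quiescent ones included.

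After injury FAPs divide, secrete matrix and supply signals that help muscle stem cells to expand and differentiate, and most of them are later cleared again. In uninjured muscle they lie close to capillaries. Sorted FAP fractions can carry RNA of neighbouring endothelial cells, blood cells, macrophages and fibre fragments, and the sources used here do not give the gates of this sort.

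Of 24 FAP and fibroblast markers named on the array, 19 were detected on all 12 activated arrays. Pdgfra, the receptor that marks FAPs, lay between 10.95 and 11.90 on all 12 arrays, while Gsn and Col1a1 were detected on none. Macrophage markers were present as well, with 16 of 20 detected on all 12 arrays and Laptm5 between 13.53 and 14.13. The number of detected probes ran from 6587 to 9943 on old and from 8147 to 9658 on young activated arrays. Old activated array 4 stood apart from the rest: it had the fewest detected probes, an array weight of 0.294 and a first principal component of -77.2, where the other 11 activated arrays lay between -5.22 and 21.9. Young activated array 1 carried the highest macrophage score of its group, 11.37, and was nearest to the old arrays in several of the scores below.

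Old and young activated FAPs differed in few genes. Of 7576 named genes tested with limma, 21 passed an adjusted p of 0.05: 18 were higher in old arrays (0.238% of genes) and 3 were lower (0.0396%). The higher genes included capillary genes (Rbp7, Robo4, Gpihbp1), an alpha globin gene (Hba-a1) and a fast muscle troponin (Tnnt3), by 3.92- to 4.82-fold. The lower genes were Kdelr2, which retrieves proteins to the endoplasmic reticulum (ER), Aldh1l2, a mitochondrial folate enzyme, and the splicing factor Rbfox1, by 2.09- to 5.58-fold. At an unadjusted p of 0.05, 425 genes were higher (5.61%) and 439 lower (5.79%). Every old array lay above every young array in 41 genes (0.541%) and below in 35 (0.462%), and 15 of the 18 higher and all 3 lower called genes were among these. Because the sorted cells were measured in bulk, fewer cells of a type and less RNA per cell cannot be told apart.

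The number of calls depended on single arrays. It was 21 without old activated array 4, with 17 of the genes shared, and it ran from 15 to 28 when any other old array was left out. Without young activated array 1 it rose to 102, of which 57.8% were higher. Without young activated array 3, 4 or 5 it was 10, 13 and 11. Rbp7, Hba-a1, Robo4, Gpihbp1, Tnnt3 and Gfod1 passed in all alternative settings in which they were tested.

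**Figure D1:**
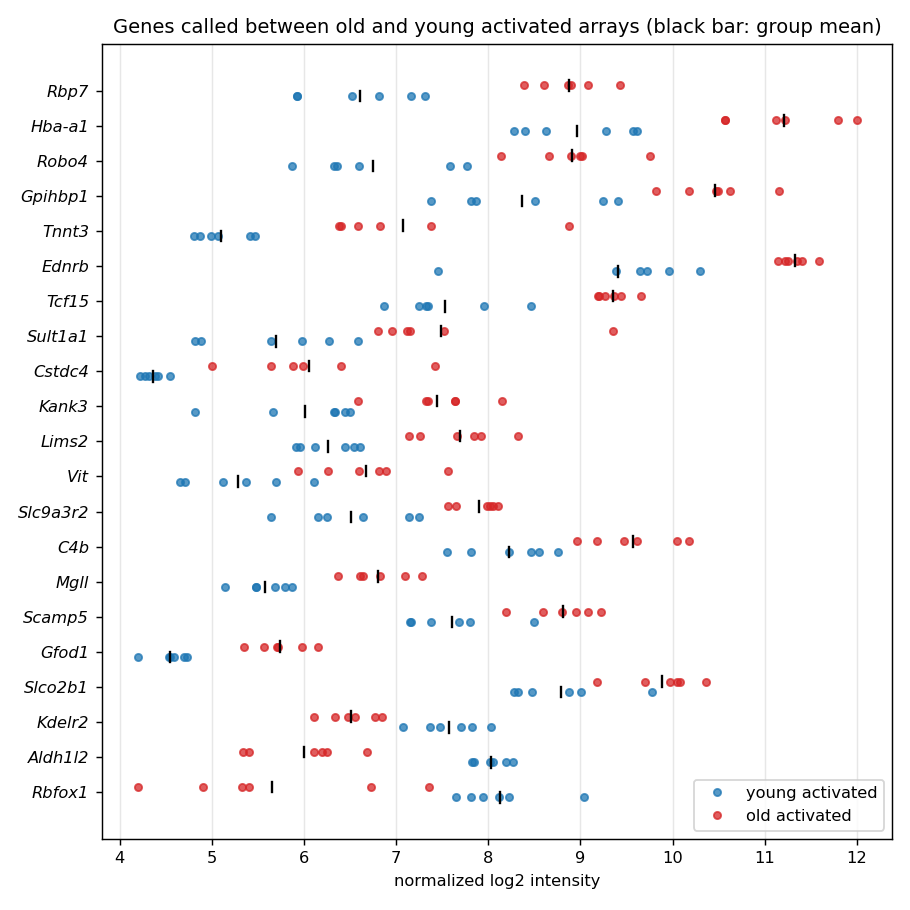
Normalized log2 intensity (x axis) of the 21 called genes on each of the 6 young (blue) and 6 old (red) activated arrays, with a black bar at each group mean. The groups overlap in 3 genes, Vit, Scamp5 and Slco2b1.

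The promoters of the 3 genes with the largest positive differences are printed here, since these genes, a retinol carrier and a guidance receptor of capillaries and a globin of red cells, were higher on every old than on every young activated array. The stretches come from RefSeq for GRCm38.p6 and run, 5′ to 3′ on the gene's strand, from 250 bases before to 50 after 1 annotated start. For Rbp7 and Robo4 that start lies inside the annotated gene, which spans chr4:149449687-149466462 and chr9:37401902-37414023. Capitals mark AGGAAG or, on the other strand, CTTCCT, which hold the core that ETS-family factors are known to bind.
Rbp7, chr4:149454919-149455218, minus strand: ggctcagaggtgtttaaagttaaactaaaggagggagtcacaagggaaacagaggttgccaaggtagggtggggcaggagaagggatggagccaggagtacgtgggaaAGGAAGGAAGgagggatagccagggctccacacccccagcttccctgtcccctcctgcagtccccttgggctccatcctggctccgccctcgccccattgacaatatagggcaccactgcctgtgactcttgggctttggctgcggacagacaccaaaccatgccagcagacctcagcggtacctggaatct
Hba-a1, chr11:32283422-32283721, plus strand: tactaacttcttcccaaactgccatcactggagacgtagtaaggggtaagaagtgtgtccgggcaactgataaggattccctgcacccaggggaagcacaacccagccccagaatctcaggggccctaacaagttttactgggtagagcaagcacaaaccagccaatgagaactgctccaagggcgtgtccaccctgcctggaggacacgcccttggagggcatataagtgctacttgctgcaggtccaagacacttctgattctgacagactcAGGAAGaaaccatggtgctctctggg
Robo4, chr9:37401722-37402021, plus strand: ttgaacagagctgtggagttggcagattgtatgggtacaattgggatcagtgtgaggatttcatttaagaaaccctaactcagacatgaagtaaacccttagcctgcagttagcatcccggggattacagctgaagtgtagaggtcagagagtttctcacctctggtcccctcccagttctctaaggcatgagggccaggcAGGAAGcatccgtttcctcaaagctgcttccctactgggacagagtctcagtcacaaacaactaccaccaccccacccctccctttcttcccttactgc
The Rbp7 stretch holds 2 overlapping matches, and those of Hba-a1 and Robo4 hold 1 each. At least 1 match stands in 35.4% of all 32851 promoters that RefSeq gave. Among the 21 called genes, 17 promoters of 12 genes were counted, and 10 of these 17 held a match. Promoters of the other called genes were left out of this count, whether or not RefSeq gave any. The 10 of 17 thus do not cover the called genes in the way that the 35.4% covers all promoters. A match is a description of the letters, and the genes were chosen by their difference, so no test was made.

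Endothelial genes were among those called higher in old FAPs. Of 13 endothelial markers tested, 2 were called higher and 0 lower, against 0.238% of all genes, 8 were higher at an unadjusted p of 0.05, against 5.61%, and all 13 had a positive estimate. Their median difference was 1.20, against -0.02 over all genes, and it was 0.69 in the authors' deposited log2 values. Gpihbp1, the capillary protein that carries lipoprotein lipase to the vessel lumen, had a lowest, median and highest value of 9.82, 10.48 and 11.16 on old and of 7.37, 8.19 and 9.41 on young arrays. The groups did not overlap, and the difference was 2.09 ± 0.34 (SE, n = 6 per group), or 4.25-fold (limma, adjusted p = 0.00311). Robo4, a roundabout receptor of endothelium that stabilises vessels, lay at 8.14, 8.95 and 9.76 on old and at 5.86, 6.48 and 7.77 on young arrays. Again no old array reached down to a young one, and the difference was 2.16 ± 0.37, or 4.47-fold (limma, adjusted p = 0.00547).

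Pecam1 (CD31), the antigen often used to remove endothelial cells from a FAP sort, lay at 6.32, 6.47 and 7.02 on old and at 4.53, 5.44 and 6.11 on young arrays. Its groups did not overlap, yet the difference of 1.20 ± 0.35 did not pass (limma, adjusted p = 0.133). The other members of the list that were higher at an unadjusted p of 0.05 and did not pass after adjustment were the lymphatic marker Lyve1 (1.71), the sialomucin Emcn (1.40), the VEGF receptor Flt1 (1.39), the junction protein Esam (1.26) and Vwf (0.88), the carrier of a clotting factor. Lyve1 differed from Emcn and Flt1 in its young medians. These were 5.68 in quiescent and 6.15 in activated FAPs, against 9.48 and 6.29 for Emcn and 13.28 and 9.98 for Flt1. Detection was uneven among the 15 markers named on the array: 8, Flt1, Vwf and Esam among them, were detected on all 12 activated arrays, while Cdh5 (VE-cadherin) was detected on 1 of 6 old and 0 of 6 young arrays, Kdr on 1 and 1, Tie1 on 1 and 0, and Fabp4 on none. The mean log2 level of the 13 genes was 7.70 to 8.38 on old and 6.20 to 7.501 on young activated arrays, so all old arrays lay above all young ones. Their summed linear intensity was 5932 to 11907 on old and 2053 to 5114 on young arrays. The part of admixed endothelial RNA in these differences was not tested.

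Several called genes outside the list are also known from capillaries. Rbp7, a cellular retinol-binding protein of endothelium and fat, lay at 8.39, 8.88 and 9.43 on old and at 5.92, 6.67 and 7.32 on young arrays. All old arrays were above all young ones, by 2.27 ± 0.28 or 4.82-fold (limma, adjusted p = 0.000122). Tcf15, a basic helix-loop-helix factor that acts with Meox2 in heart capillaries, lay at 9.19, 9.32 and 9.65 on old and at 6.87, 7.33 and 8.46 on young arrays. Its difference was 1.82 ± 0.35, or 3.54-fold, without overlap (limma, adjusted p = 0.017). Ednrb, the endothelin B receptor, lay at 11.14, 11.30 and 11.58 on old and at 7.46, 9.68 and 10.30 on young arrays. The groups did not overlap, though young activated array 4 lay far below its group, and the difference was 1.91 ± 0.34, or 3.76-fold (limma, adjusted p = 0.00782). Kank3, an ankyrin-repeat protein of the cell cortex, was 1.43 ± 0.31 higher (limma, adjusted p = 0.0414), and Slc9a3r2, a scaffold that tethers membrane transporters, 1.39 ± 0.29 (adjusted p = 0.0363). Each of these last 2 lost its call in at least 14 of the alternative settings.

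**Figure D2:**
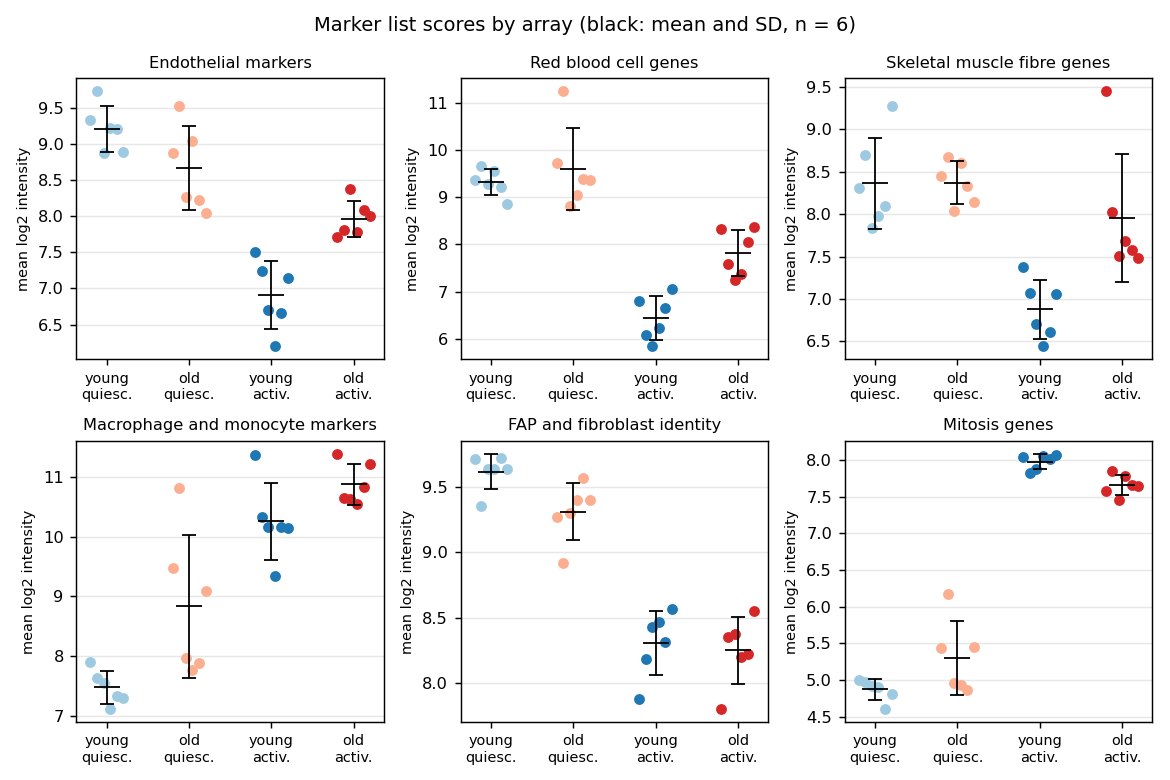
Mean log2 intensity of the tested genes of 6 lists (y axis) on each array of the 4 groups, with the group mean and SD (n = 6) in black. In the endothelial, red blood cell and muscle fibre lists all old activated arrays lie above all young activated ones, while the FAP list overlaps.

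An alpha globin gene and a fast troponin gene were called higher in old FAPs as well. Hba-a1, adult alpha globin, lay at 10.57, 11.17 and 11.997 on old and at 8.28, 8.95 and 9.61 on young arrays. The groups were apart by 2.25 ± 0.28, or 4.76-fold (limma, adjusted p = 0.000122). The gene has a near-identical neighbour copy, and the probe may read both. Of 4 red blood cell genes tested, 1 was called higher and 0 lower, against 0.238% of all genes called higher. Their median was 1.27 and ran from 0.82 to 1.99 over 24 alternative settings. The 1.99 was that of Hba-a1 and Hbb-bt alone, the members detected on at least 6 of the 12 activated arrays. The beta globin Hbb-bt was 1.72 ± 0.43 higher and did not pass (limma, adjusted p = 0.0718). Alas2, the first enzyme of heme synthesis in red cells, was detected on 3 of 6 old and 1 of 6 young arrays, and Slc4a1, the band 3 anion exchanger, on none. The mean log2 level of the 4 genes was 7.24 to 8.37 on old and 5.84 to 7.05 on young arrays, without overlap, and their summed intensity 1974 to 5564 and 443 to 1435. Whether red blood cell RNA carried over in the sort accounts for this was not tested.

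Of 11 skeletal muscle fibre genes, 1 was called higher and 0 lower, against 0.238% of all genes called higher, 8 were higher at an unadjusted p of 0.05, against 5.61%, and the median was 1.20. Tnnt3, fast skeletal troponin T, lay at 6.37, 6.70 and 8.87 on old and at 4.81, 5.02 and 5.47 on young arrays. The groups did not overlap, and the difference was 1.97 ± 0.31, or 3.92-fold (limma, adjusted p = 0.00263). It was detected on 4 of 6 young arrays, so the young level was near background. Ckm, muscle creatine kinase, differed by 2.10 ± 0.48 without overlap and did not pass (limma, adjusted p = 0.0622). The calcium pump Atp2a1 (1.48), the troponin Tnnc2 (1.36) and the calcium buffer Pvalb (1.31) did not pass either. The fibre myosin Myh1 was detected on none of the 12 arrays and Myh4 on 1 array of each group. The mean log2 level of the list was 7.48 to 9.45 on old and 6.44 to 7.38 on young arrays, and summed intensities, 3276 to 14167 and 2276 to 4422, overlapped. Old activated array 1 was the highest, and the list median without it was 0.81. The part of fibre RNA was not tested.

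Further genes called higher encode an adaptor and enzymes. Lims2 (PINCH2), an adaptor of integrin-linked kinase at focal adhesions, lay at 7.14, 7.75 and 8.32 on old and at 5.92, 6.28 and 6.60 on young arrays. The groups were apart by 1.43 ± 0.21, or 2.69-fold (limma, adjusted p = 0.00107). Mgll, which splits monoacylglycerols in the last step of fat breakdown, lay at 6.36, 6.73 and 7.28 on old and at 5.14, 5.58 and 5.87 on young arrays. It too did not overlap, with a difference of 1.23 ± 0.23, or 2.34-fold (limma, adjusted p = 0.0156). Sult1a1, a phenol sulfotransferase, lay at 6.80, 7.13 and 9.35 on old and at 4.81, 5.81 and 6.59 on young arrays. The highest value was that of old array 3, and the difference was 1.79 ± 0.38 (limma, adjusted p = 0.0363). On quiescent arrays the medians of all 3 genes were higher than on activated ones at both ages. They were 9.52 in old and 9.73 in young for Lims2, 7.95 and 8.49 for Mgll, and 8.99 and 10.10 for Sult1a1.

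C4b, complement component 4, whose cleavage product tags surfaces for clearance, lay at 8.96, 9.54 and 10.17 on old and at 7.55, 8.35 and 8.76 on young arrays. No old value fell within the young range, and the difference was 1.35 ± 0.25, or 2.55-fold (limma, adjusted p = 0.0109). Mice carry a closely related second C4 gene, which the probe may also read. In the complement and coagulation list of 16 genes, C4b was the 1 called higher, against 0.238% of all genes, 14 had a positive estimate and the median was 0.62. F13a1, the transglutaminase subunit of clotting factor XIII that macrophages also make, differed by 1.62 ± 0.43 without overlap and did not pass (limma, adjusted p = 0.0916).

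Vit (vitrin), a matrix protein of the FAP list, lay at 5.93, 6.71 and 7.56 on old and at 4.65, 5.25 and 6.11 on young arrays. The groups overlapped, the difference was 1.40 ± 0.29 (limma, adjusted p = 0.0351), and the call was lost in 15 of 23 alternative settings. On quiescent arrays the medians of Vit were higher, 8.97 in old and 9.24 in young. Cstdc4, a cystatin of the stefin A cluster, was detected on no young array, so it was at least 2.31-fold higher in old FAPs (limma, adjusted p = 0.0109), and its near-identical relatives may share the probe. It was detected on 2 of 6 old quiescent and 6 of 6 old activated arrays. Cstdc4 thus met the filter of detection on 6 or more arrays only through the group where it was high. Scamp5, Gfod1 and Slco2b1 complete the list of called genes and are named after their values were seen. Gfod1 was detected on no young array and was at least 1.86-fold higher (limma, adjusted p = 0.00129). The secretory vesicle protein Scamp5 differed by 1.20 ± 0.26 (limma, adjusted p = 0.0414) and the organic anion transporter Slco2b1 by 1.10 ± 0.23 (adjusted p = 0.0302), both with overlapping groups.

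Kdelr2 had the lowest adjusted p among the genes lower in old FAPs. It encodes a KDEL receptor, which binds chaperones that have escaped to the Golgi and returns them to the ER, and lies at chr5:143403820-143421904 (GRCm38.p6). Its values were 6.10, 6.51 and 6.85 on old and 7.08, 7.59 and 8.03 on young activated arrays. All old arrays were below all young ones, and Kdelr2 fell by 1.07 ± 0.19 on the log2 scale, or 2.09-fold (limma, adjusted p = 0.00956). On quiescent arrays the medians were 5.69 in old and 5.90 in young. Of 17 ER folding and unfolded protein response genes, Kdelr2 was the 1 called lower, against 0.0396% of all genes, 15 had a negative estimate and the median was -0.25. Sec61b, a subunit of the translocation channel, was at 7.51 to 8.38 on old and 8.62 to 9.29 on young arrays. These did not overlap, but the difference of -0.92 ± 0.22 did not pass (limma, adjusted p = 0.0662), nor did that of the second receptor Kdelr3, -0.97 ± 0.27 (adjusted p = 0.102). The chaperones Hspa5 (-0.19) and Hsp90b1 (-0.12) and the stress factor Ddit3 (-0.03) did not pass.

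Aldh1l2, mitochondrial 10-formyltetrahydrofolate dehydrogenase, oxidises folate-bound one-carbon units and yields NADPH. It lies at chr10:83487447-83534146. Its values were 5.34, 6.15 and 6.69 on old and 7.82, 8.03 and 8.27 on young activated arrays. The gap between the groups was wider than the range of the young arrays, and Aldh1l2 fell by 2.04 ± 0.42, or 4.11-fold (limma, adjusted p = 0.0302). On quiescent arrays it ran from 4.32 to 6.33 in old and from 4.32 to 7.08 in young. The call was lost in 9 of 23 alternative settings, 7 of which left out 1 array, at adjusted p up to 0.0961. Of 11 amino acid and one-carbon genes, Aldh1l2 was the 1 called lower, against 0.0396% of all genes, and the median was -0.30. The mitochondrial folate enzyme Mthfd2 (-0.44), the asparagine synthetase Asns (-0.56), the leucine transporter subunit Slc7a5 (-0.53) and the serine pathway enzyme Psat1 (-0.39) had negative estimates and did not pass, and Shmt2 differed by -0.30.

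Rbfox1, a splicing factor of neurons, heart and skeletal muscle, lies at chr16:5884793-7412480. Its values were 4.19, 5.36 and 7.36 on old and 7.65, 8.03 and 9.04 on young activated arrays. The groups did not overlap, though old arrays 5 and 6 came close to the young range, and Rbfox1 fell by 2.48 ± 0.54, or 5.58-fold (limma, adjusted p = 0.0483). This call was lost in 12 of 23 alternative settings. It was detected on 4 of 6 old arrays. A further called probe, 1.66 ± 0.36 lower on the log2 scale in old arrays (limma, adjusted p = 0.0414), carries no gene name in the annotation used here.

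Ccn4 (WISP1) is a secreted matricellular protein of the CCN family, a FAP signal known to act on muscle stem cells, and lies at chr15:66891369-66923201. Its values were 5.71, 7.37 and 8.58 on old and 8.92, 9.45 and 9.93 on young activated arrays. All 6 old arrays lay below all 6 young ones, yet the difference of -2.08 ± 0.49, or 4.22-fold, did not pass over all genes (limma, adjusted p = 0.0652). Across 23 alternative settings the adjusted p ran from 0.0046 to 0.189, and it passed in 8 of them. This separation, shared by 0.462% of all genes, by itself fixes an exact permutation p at the smallest value it can take, so such a test, run after the data had been seen, adds nothing to it. On quiescent arrays the medians were 5.27 in old and 6.31 in young, and the age difference did not differ detectably between the states (-1.28 ± 0.69, limma, adjusted p = 0.635).

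**Figure D3:**
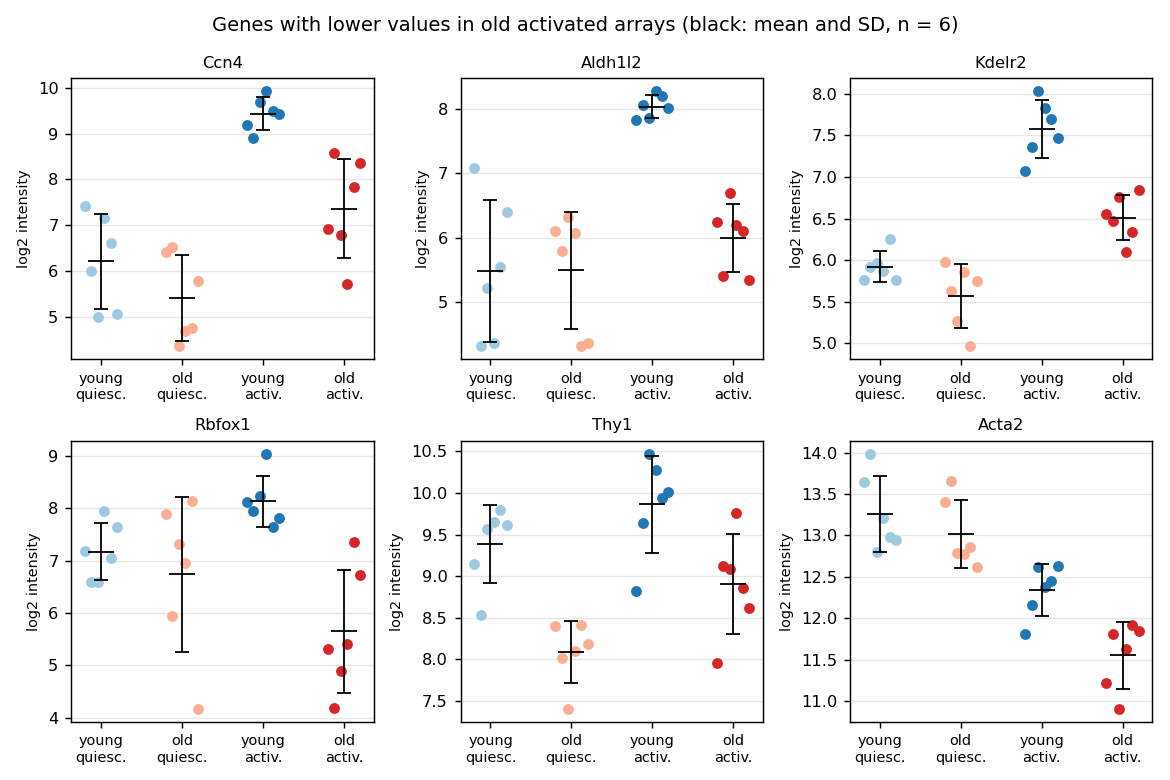
Normalized log2 intensity (y axis) of 6 genes on each array of the 4 groups, with the group mean and SD (n = 6) in black. In Ccn4, Aldh1l2, Kdelr2 and Rbfox1 no old activated array reaches the lowest young activated one, while Thy1 and Acta2 overlap and did not pass the test.

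Of 23 FAP and fibroblast genes, 1, Vit, was called higher, against 0.238% of all genes, and 0 lower. At an unadjusted p of 0.05, 3 were higher and 3 lower, against 5.61% and 5.79% of all genes. The median was -0.20. Pdgfra differed by -0.17 ± 0.22 (limma, adjusted p = 0.846). Thy1, a surface glycoprotein of fibroblasts, lay at 7.96, 8.98 and 9.76 on old and at 8.83, 9.98 and 10.47 on young arrays. The ranges overlapped and the difference of -0.96 ± 0.29 did not pass (limma, adjusted p = 0.147). Dpp4 (1.31 ± 0.33, adjusted p = 0.0746) and Pi16 (0.88 ± 0.22, adjusted p = 0.0729), which mark a progenitor-like fibroblast state, had positive estimates and did not pass limma's test. Meox1 (-0.80) and Prrx1 (-0.69), which like Thy1 were lower at the unadjusted threshold, did not pass. Cd34 (0.45), Dcn (0.10), Osr1 (0.14), Mfap5 (-0.20), Col1a2 (-0.38) and Dpt (-0.41) did not pass. In the whole list 9 estimates were positive and 14 negative. The mean log2 level of the list was 7.80 to 8.55 on old and 7.88 to 8.56 on young arrays, which overlap almost fully.

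No member of the matrix lists was called, and estimates were mostly negative in 2 of these lists. Of 20 genes of fibrillar collagens and their processing, 16 had a negative estimate, and the median was -0.38. At an unadjusted p of 0.05, 4 were lower and 1 was higher, against 5.79% and 5.61% of all genes. Col16a1, a fibril-associated collagen, lay at 7.499 to 8.77 on old and at 8.89 to 9.73 on young arrays. It did not overlap, and its difference of -0.98 ± 0.26 did not pass (limma, adjusted p = 0.1004). Col5a2 (-0.85), Serpinh1 (-0.61), the collagen chaperone, P3h1 (-0.61), a prolyl hydroxylase, and Col3a1 (-0.80 ± 0.42) did not pass. Of 14 matricellular genes 9 had a negative estimate, with a median of -0.27; Ccn1 (-0.81), Sparc (-0.54) and Ccn2 (-0.26) did not pass, nor did Tgfbi (0.72). In the other matrix lists, 11 of 21 genes of proteoglycans and elastic fibres, 8 of 15 of basement membranes and collagen VI and 7 of 17 proteases and inhibitors had a negative estimate, with medians of 0.00, -0.04 and 0.11. Acta2, smooth muscle actin of myofibroblasts and pericytes, lay at 10.91, 11.72 and 11.92 on old and at 11.82, 12.41 and 12.63 on young arrays. The overlap was small, and the difference of -0.79 ± 0.24 did not pass (limma, adjusted p = 0.144). Timp1 (-0.52), Pparg (-0.24), the adipogenic regulator, and Gdf10 (0.55) did not pass.

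No member of the TGF-beta and BMP, Wnt, growth factor and Notch lists was called. Of 29 TGF-beta and BMP genes 19 had a negative and 10 a positive estimate, with a median of -0.11. At an unadjusted p of 0.05, 4 were lower and 0 higher, against 5.79% and 5.61% of all genes. The ligands Tgfb3 (-1.05) and Tgfb2 (-1.002), the transducer Smad5 (-0.71) and Fstl1 (-0.77) did not pass. Of 14 Wnt genes 2 were lower and 0 higher at that unadjusted threshold, against the same shares, and 3 had a positive estimate. Their median was -0.21, and Wnt2 (-1.39) and the receptor Fzd2 (-1.07) did not pass. The growth factor Ptn (-1.86, limma, adjusted p = 0.116) and Pdgfb (1.10, adjusted p = 0.101) did not pass. Igf1 (0.08), Il6 (0.04) and Il33 (-0.59), cytokines and growth factors that FAPs give to regenerating muscle, did not pass, nor did Il10 (1.32). Of 9 Notch genes 2 were higher and 1 lower at an unadjusted p of 0.05, against 5.61% and 5.79% of all genes. The endothelial receptor Notch4 (1.23, limma, adjusted p = 0.0682) did not pass.

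**Figure D4:**
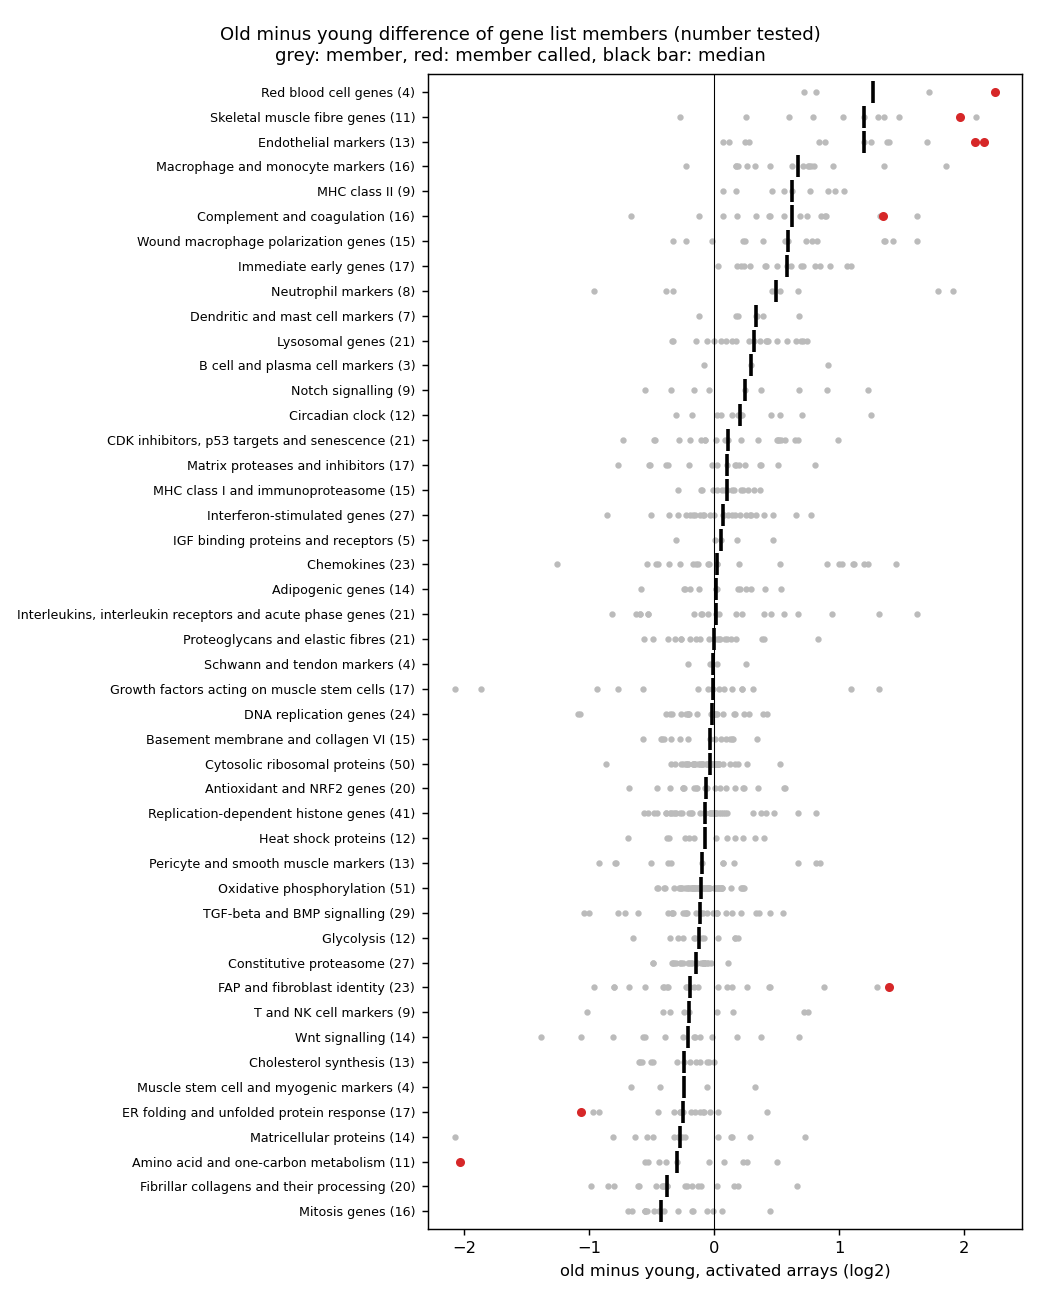
Old minus young log2 difference on activated arrays (x axis) of every tested member of 46 gene lists (grey points), with called members in red and the list median as a black bar. Red points stand in 7 lists, and medians run from -0.42 in mitosis genes to 1.27 in red blood cell genes.

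Macrophage genes had mostly positive estimates and no call. Of 16 macrophage and monocyte genes 0 were called, 15 had a positive estimate and the median was 0.67. In quiescent arrays the median age difference of this list was 1.43, and 3 members were called, against 0.607% of all genes. At an unadjusted p of 0.05, 2 were higher, against 5.61% of all genes. Cd163, the scavenger receptor of hemoglobin, lay at 11.29 to 12.41 on old and at 9.25 to 11.41 on young arrays. The ranges overlapped, and its difference of 1.86 ± 0.44 did not pass (limma, adjusted p = 0.0652). The mannose receptor Mrc1 (1.36), Adgre1 (0.76) and Lyz2 (0.62) did not pass. The mean level of the list was 10.55 to 11.38 on old and 9.34 to 11.37 on young arrays, and the overlap came from young array 1; summed intensities were 65042.5 to 83004 and 36860 to 83464.

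Of 15 wound macrophage genes 12 had a positive and 3 a negative estimate, with a median of 0.59. Among them the arginase Arg1 (1.43 ± 0.34, limma, adjusted p = 0.0662), the inflammatory cytokine Il1b (1.63) and the lectin Clec10a (1.37) did not pass. The neutrophil calgranulins S100a9 (1.91) and S100a8 (1.79) did not pass either. Of 8 neutrophil genes 5 had a positive and 3 a negative estimate, from -0.96 to 1.91, with a median of 0.49. All 9 MHC class II genes had a positive estimate, with a median of 0.63, and H2-Ab1 (1.04) and Cd74 (0.97), the invariant chain, did not pass. Of 23 chemokines 8 were higher and 1 lower at an unadjusted p of 0.05, against 5.61% and 5.79% of all genes. Their median was 0.02 and turned negative in 5 of 24 alternative settings. Ccl8 (1.45), Ccl12 (1.23), Ccl24 (1.20) and Cxcl2 (1.12) and, on the other side, Cxcl9 (-1.26) did not pass. In 3 further immune lists, 4 of 9 T and NK cell genes, 11 of 21 interleukin and acute phase genes and 14 of 27 interferon-stimulated genes had a positive estimate, with medians of -0.20, 0.01 and 0.07. Saa3, an acute phase protein, differed by -0.11 ± 0.81 (limma, adjusted p = 0.974).

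All 17 immediate early genes had a positive estimate and 0 were called. At an unadjusted p of 0.05, 8 of them were higher, against 5.61% of all genes. Their median was 0.58. The early factors Ier2 (1.09), Atf3 (1.06), Klf2 (0.93) and Jun (0.69) and the mRNA decay factor Zfp36 (0.81) did not pass, while Fos (0.18) and Egr1 (0.03), also in the list, did not pass either.

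Mitosis genes had mostly negative estimates in old activated FAPs, with no call. Of 16 mitosis genes 14 had a negative estimate and 0 were called. At an unadjusted p of 0.05, 4 were lower and 0 higher, against 5.79% and 5.61% of all genes. The median was -0.42, or -0.15 without the filter on dim probes and -0.21 in the authors' deposited log2 values. Birc5 (survivin), of the chromosomal passenger complex, lay at 6.75 to 7.77 on old and at 7.48 to 8.25 on young arrays. These overlapped, and the difference of -0.69 ± 0.19 did not pass (limma, adjusted p = 0.116). Cdc20 (-0.66), Cdk1 (-0.45) and Plk1 (-0.56) did not pass. The spread in these tests was pooled with that of the quiescent arrays. For Plk1 the SD was 0.24 on young and 0.27 on old activated arrays, but 0.62 and 1.37 on quiescent ones. For Cdk1 these SDs were 0.24 and 0.15, and 0.19 and 0.35. The mean level of the list was 7.45 to 7.84 on old and 7.82 to 8.07 on young arrays, where 1 old array, number 2, lay above the lowest young one. Of 24 DNA replication genes 1 was lower at an unadjusted p of 0.05, against 5.79% of all genes, with a median of -0.02. Cdkn1a (p21), the inhibitor of cyclin-dependent kinases, lay at 8.62, 8.98 and 9.83 on old and at 6.98, 8.24 and 8.86 on young arrays. The overlap was narrow, and its difference of 0.99 ± 0.28 did not pass (limma, adjusted p = 0.116). Cdkn2a, the p16 locus, lay near background, between 4.27 and 5.48 on old and 4.26 and 5.22 on young arrays.

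Spp1, Col1a1, Tgfb1, Mki67, Ptprc, Pax7 and Cd68 were not tested here, since they were not named on the array or did not pass the filter on dim probes.

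The age difference was then compared with that of quiescent FAPs, which shares no array with it. In quiescent arrays 46 genes were called between ages (0.607%), 34 higher and 12 lower in old, and 0 genes were called in both states. The 46 became 2, both lower in old, when the quiescent arrays were fitted alone, and 29, with 48.3% higher, under median scaling. Of the 46, 30 had the same sign in activated arrays. The difference between the age differences was called for 15 genes (0.198%), 13 of them more positive in activated arrays and 2 more negative. Of these 15, 9 were also called in activated arrays and 3 in quiescent ones. Single arrays moved both counts: the 46 became 28 without young quiescent array 2 and 105 without old quiescent array 4. The 15 became 24 without young activated array 1, 8 without young activated array 5, 39 without old quiescent array 2 and 28 without old quiescent array 4.

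Tcf15 differed most among the genes that were more positive after injury. On quiescent arrays it lay at 9.79, 10.54 and 11.98 in old and at 11.23, 11.99 and 12.95 in young. The medians stood in the reverse of the order after injury, but these quiescent groups overlapped. The 2 age differences were -1.17 ± 0.35 and 1.82 ± 0.35, and they differed by 3.00 ± 0.50 (limma, adjusted p = 0.009). The quiescent one did not itself pass (limma, adjusted p = 0.119). Robo4 had -0.78 and 2.16, a difference of 2.94 ± 0.52 (limma, adjusted p = 0.00942). Gpihbp1 had -0.68 and 2.09, a difference of 2.77 ± 0.48 (limma, adjusted p = 0.009). The quiescent differences of Robo4 and Gpihbp1 did not pass (limma, adjusted p = 0.377 and 0.411). In the endothelial list the median age difference was -0.67 in quiescent and 1.20 in activated arrays. In 3 immune lists it was larger in quiescent arrays: 1.43 and 0.67 for macrophage, 1.13 and 0.63 for MHC class II and 0.35 and 0.02 for chemokine genes. Of these, 3 macrophage, 0 MHC class II and 6 chemokine genes were called in quiescent arrays, against 0.607% of all genes. On young arrays the median of Robo4 was 10.42 in quiescent and 6.48 in activated FAPs, and on old arrays 9.70 and 8.95.

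Rbp7 and Hba-a1 had no measurable age difference in quiescent arrays, 0.00 ± 0.28 and -0.06 ± 0.28, and both differed between the states (limma, adjusted p = 0.009). Sult1a1 (-1.05 and 1.79, adjusted p = 0.0186) and Icam2, an adhesion molecule of endothelium (-1.03 and 1.28, adjusted p = 0.0433), were also called for limma's test between the states. Their quiescent differences did not pass (limma, adjusted p = 0.208 and 0.166), nor did that of Icam2 in activated arrays (adjusted p = 0.1004). Cachd1, a membrane protein related to calcium channel subunits, was called in quiescent arrays (-1.80 ± 0.30, limma, adjusted p = 0.00559) and not in activated ones (0.75 ± 0.30, adjusted p = 0.292), and the 2 values differed (adjusted p = 0.009). The remaining genes on this side, named after their values were seen, were Slc9a3r2, Lims2, Mgll, Ltbp4, which anchors latent TGF-beta to elastic fibres, and the caveolar protein Cavin2, by 1.495 to 2.07. Angptl4, a secreted inhibitor of lipoprotein lipase, was 2.33 ± 0.42 higher in old quiescent arrays and differed by -0.65 ± 0.42 in activated ones. On old activated arrays it spread from 9.86 to 12.85, and the states differed by -2.98 ± 0.59 (limma, adjusted p = 0.0276). Stau2, a binder of double-stranded RNA, had age differences of 1.54 and -0.57 and differed by -2.11 ± 0.41 (limma, adjusted p = 0.0223).

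**Figure D5:**
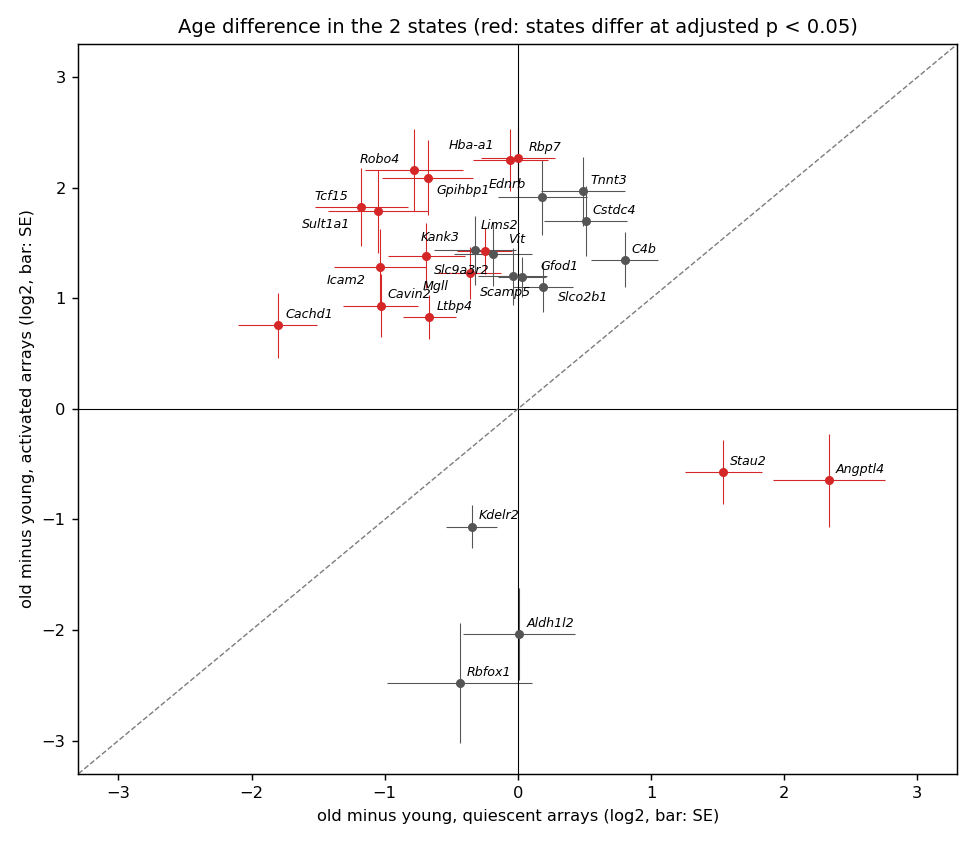
Old minus young log2 difference with its SE in quiescent (x axis) and activated arrays (y axis) for the genes called in activated arrays or for the difference between the states; red marks the 15 genes of the latter and the dashed line equal differences. Most red genes lie above the line with values left of 0 on the x axis, and Angptl4 and Stau2 lie below it.

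Of the 18 genes called higher after injury, 6 had a positive difference in quiescent arrays. Aldh1l2 had 0.01 ± 0.42 and Kdelr2 -0.35 ± 0.19 there, and for neither did limma call the difference between the states (adjusted p = 0.177 and 0.416).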

How the data were processed

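RNA of FAPs from 4 groups of 6 mouse samples was measured on Illumina 1-colour arrays. For each of 25697 probes per array the deposited table holds an intensity before normalization and a detection p-value, per the file headers. The authors also deposited normalized log2 values, used as an alternative: each column had a median of 6.71, and they lay within 0.118 of quantile-normalized log2 intensities without background correction. Partek is named, without a version, in the submitters' processing notes. Column names carry 1 letter per group, so what it marks and the group cannot be told apart.

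Background was corrected from the detection p-values with an offset of 16, followed by quantile normalization and log2 (limma 3.58.1, R 4.3.3). A probe was kept where its detection p was under 0.01 on 6 or more arrays (10048 probes), and each gene was read from its brightest kept probe. The fit thus held 7576 genes with a name and 572 probes without. Of all probes, 23978 had 1 gene symbol, 0 several and 1719 none. limma's lmFit and eBayes were fitted to 4 group means over 24 arrays, with Benjamini-Hochberg adjustment over all 8148 features and calls at an adjusted p under 0.05. Where a gene was detected in 1 group alone, "at least" sets the bright group's mean against a floor in the other: on each array, its dimmest detected probe or the gene's own probe, whichever was brighter. Errors are standard errors (SE) of the fit. Only the fit was run on simulated data, made of log2 values with the same spread in all 4 groups. Background correction, normalization, the probe filter and the floor were not tested in this way. The number of arrays limits the precision.

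Named genes were the 15 highest and 15 lowest called, up to 4 called members of a list per direction, 8 genes per direction of the comparison of states, and 25 genes listed by hand; exceptions and list members named as examples were chosen after their values were seen. The gene lists and named genes were chosen with earlier results of these data known.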

Additional observations from a re-analysis of the deposited data

Results flagged for a closer look

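Of 106 groups of 6 values examined in the activated arrays, 9 held a sample whose gap to its nearest neighbour passed Dixon's limit for 6 values, as a share of the group's range, and chance flags about 1 group in 20. Old activated array 4 was far from the others on the first principal component (-77.2, nearest -5.22) and lowest in Il33 (6.54). Old activated array 3 was highest in Sult1a1 (9.35) and array 1 in the muscle fibre score (9.45). Young activated array 1 was lowest in Pdgfra (10.95) and Timp1 (12.82), array 4 was lowest in Ednrb (7.46) and Gfod1 (4.20), and array 6 was highest in Cd34 (7.35).

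For 15 genes limma called the age difference in activated minus that in quiescent arrays. On the log2 scale it was 3.00 for Tcf15, 2.94 for Robo4, 2.84 for Sult1a1, 2.77 for Gpihbp1, 2.56 for Cachd1, 2.31 for Icam2, 2.31 for Hba-a1 and 2.27 for Rbp7. It was 2.07 for Slc9a3r2, 1.96 for Cavin2, 1.68 for Lims2, 1.59 for Mgll and 1.495 for Ltbp4, and -2.11 for Stau2 and -2.98 for Angptl4.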

How the results depend on the processing

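Across the alternatives, 913 of 1061 values of named genes kept their direction and their side of the threshold, 120 lost their call, 18 gained one and 10 turned their direction. Those 10 came from leaving out 1 array, in 4 genes that were never called: Cdkn2a ran from -0.23 to 0.018, Igf1 from -0.060 to 0.15, Il6 from -0.23 to 0.28 and Saa3 from -0.27 to 0.12. The 21 calls between old and young activated arrays became 8 with median scaling, 37 with probes detected on all 24 arrays (12 shared), 132 with array weights (21 shared) and 43 with a trended, robust eBayes. The share that was higher was 85.7%, against 64.3% of 28 calls without background correction, 63.0% of 27 in the authors' deposited log2 values, and 73.7% of 19 with an offset of 50. Leaving out 1 array gave 10 to 102 calls. The 46 quiescent calls became 29 with median scaling, 30 without the filter on dim probes, 2 when only the quiescent arrays were fitted and 78 with array weights (28 to 105 with 1 array left out). Of the 46, 73.9% were higher, against 52.7% both without background correction and in the deposited values, 60.8% with an offset of 50 and 48.3% with median scaling. The 15 calls between states became 6 with median scaling, 9 without the filter and 28 with array weights (8 to 39 with 1 array left out). Of the 15, 86.7% were positive, against 75% without background correction and in the deposited values and 100% with median scaling, which moved the all-gene median to -0.05 (activated), -0.15 (quiescent) and 0.10 (between states). Calls were lost most often for Kank3 and Vit (15 of 23 alternatives), Scamp5 and Slc9a3r2 (14 of 24) and Sult1a1 and Rbfox1 (12 of 23), and Kdelr2 lost its call with median scaling (adjusted p = 0.185). The cause of these shifts was not tested.

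The replicate numbers were not taken to pair the samples, since the labels do not say that they mark a shared animal, litter or day. Same-numbered young and old activated arrays had correlations of -0.00013 to 0.365, with 3 of 6 over 0.1. Of these 6 pairs, 4 correlated best with their own number, a hint from the data that the labels do not explain. With the number as a block there were 28, 50 and 15 calls. Genes near background have only a bound, and the arrays carry no counts.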
